A study of Mus musculus with 6 samples.

Results

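The genes described here are 10 members of the poly(ADP-ribose) polymerase (PARP) family and its partners that are linked to the interferon response or set beside it: *Parp9*, *Dtx3l*, *Parp14*, *Parp10*, *Parp11* and *Parp12*, listed as interferon-induced, and *Parp1*, *Parp2*, *Parp3* and *Parp8*, listed as other members. They were chosen by symbol, and all 10 were found among the 26264 genes of the table. Bulk RNA-seq had been performed on hematopoietic stem cells (HSCs) sorted from the bone marrow of untreated female mice aged 8 weeks, to see which transcripts differ without the transcription factor IRF1. The WT group was 3 C57Bl/6 mice and the *Irf1-/-* group was 3 mice of the strain B6.129S2-Irf1 tm1Mak/J, with 1 library per mouse. The knockout is whole-body, so the HSCs developed in animals in which all other cells also carried the deletion. Libraries are named by genotype and by the replicate numbers 2, 3 and 4. Between 43138521 and 59658080 reads per library were counted on genes, and values are read counts divided by 1 size factor per library (normalized counts).

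PARP enzymes transfer ADP-ribose from NAD to proteins or nucleic acids. PARP1, PARP2 and PARP3 are activated by DNA breaks, whereas most other members attach single ADP-ribose units, and several of these are transcribed in response to interferons. DTX3L is a ubiquitin ligase that binds PARP9, and their genes lie head to head beside *Parp14*.

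*Irf1* itself was counted in every library, at 9267, 9524 and 9287 normalized counts in *Irf1-/-* replicates 2, 3 and 4 and at 10122, 11119.6 and 12057.5 in the WT replicates. The *Irf1-/-* libraries lay below the WT libraries, but most of the signal was still there. The table holds 1 value per gene and none per exon, so these counts could not show whether the deleted part was absent and are no check of the genotype labels.

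In *Irf1-/-* HSCs, *Parp12*, *Dtx3l* and *Parp10* fell to between 70.5% and 75.8% of the WT mean, and these were the members with an adjusted *P* under 0.05 (limma). That is 3 of 10 members lower, where 1.49% of the 17404 tested genes were lower at this threshold, and 0 of 10 higher, where 1.73% were higher. All 3 belong to the 6 interferon-induced members. Tested genes had a mean of at least 10 normalized counts, whereas the members had at least 1003 reads in each library. Among the 13366 genes with a mean of at least 50, limma called 4.73% in either direction and 4 members, against 3.22% of all tested genes. None of the 10 also passed an absolute log2 fold change of 0.58, a pair of thresholds that 1.91% of tested genes passed. At an unadjusted *P* under 0.05 there were 6 members, where 16.5% of tested genes were, and edgeR and DESeq2 also placed 0 members past both thresholds. *Irf1-/-* libraries lay entirely below WT libraries for 4 members (9.27% of tested genes) and entirely above them for 1 member, *Parp8* (10.6% of tested genes). The median log2 fold change was −0.36 for the 6 interferon-induced members, −0.11 for the 4 other members and −0.003 over all tested genes, for which 301 genes were higher and 260 lower at an adjusted *P* under 0.05. With median centring of each library that split was 270 higher and 374 lower. Because the RNA was bulk, fewer cells of a type and less RNA per cell cannot be told apart in any of these values.

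*Parp9* and *Dtx3l*, whose products form a complex, were compared first. *Dtx3l* had 6059, 6072 and 5663 normalized counts in *Irf1-/-* replicates 2, 3 and 4 and 7765, 8080.2 and 7949 in the WT replicates. The genotypes were far apart, and the 3 libraries of each genotype were close together, with a coefficient of variation of 2.00% in WT and 3.92% in *Irf1-/-* HSCs. The mean fell from 7931 ± 158 to 5931.5 ± 233 (SD, *n* = 3 per genotype), a log2 fold change of −0.42 (SE 0.082, 95% confidence interval −0.60 to −0.24, adjusted *P* = 0.0125, limma). *Parp9* had 3685, 4985 and 3520.2 normalized counts in the *Irf1-/-* libraries and 4759, 5002.5 and 4128 in the WT libraries. *Irf1-/-* replicate 3 stood with the WT libraries, whereas replicates 2 and 4 were below all of them, so the genotypes overlapped. Its log2 fold change was −0.20 (SE 0.127, 95% confidence interval −0.47 to 0.07, adjusted *P* = 0.493, limma), and it ranged from −0.36 without *Irf1-/-* replicate 3 (adjusted *P* = 0.102) to −0.11 without *Irf1-/-* replicate 4 (adjusted *P* = 0.870).

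The 2 genes were then compared through their ratio, which needs no scaling between libraries. The log2 ratio of *Parp9* to *Dtx3l* was −0.72, −0.28 and −0.69 in *Irf1-/-* replicates 2, 3 and 4 and −0.71, −0.69 and −0.95 in the WT replicates. *Irf1-/-* replicate 3 had the highest and WT replicate 4 the lowest ratio, and the other 4 libraries lay between −0.72 and −0.69. The mean ratio was 0.22 higher in *Irf1-/-* HSCs (exact two-sided permutation test, *P* = 0.4, where 3 against 3 allow no value under 0.1, so the test could not pass 0.05), and 0.08 higher without *Irf1-/-* replicate 3. In GENCODE vM1 the genes are on opposite strands and share 458 exonic bases at their starts, 9.40% of the exonic length of *Parp9* and 8.00% of that of *Dtx3l*. Whether strand was used in counting is not given in the sources used here, and without it the reads from these bases cannot be assigned to either gene.

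*Parp14*, the neighbour of *Dtx3l*, encodes an enzyme with several ADP-ribose-binding macrodomains. It had 2266, 1913 and 2188 normalized counts in the *Irf1-/-* libraries and 2679, 2019.5 and 2424 in the WT libraries. *Irf1-/-* replicate 3 and WT replicate 3 were the lowest libraries of their genotypes, and the latter lay within the *Irf1-/-* range. The log2 fold change was −0.16 (SE 0.120, 95% confidence interval −0.41 to 0.10, adjusted *P* = 0.599, limma). With WT replicate 3 left out it was −0.27, and with WT replicate 2 left out −0.06.

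*Parp10*, *Parp11* and *Parp12* encode enzymes that attach single ADP-ribose units, and PARP12 also carries zinc fingers of the CCCH type. *Parp12* had 3805, 3778 and 3299 normalized counts in *Irf1-/-* replicates 2, 3 and 4 and 5299.6, 5405 and 4722 in the WT replicates. There was a wide gap between the highest *Irf1-/-* and the lowest WT library. The mean fell from 5142 ± 368 to 3627 ± 285 (SD, *n* = 3), which was 70.5% of WT and a log2 fold change of −0.50 (SE 0.096, 95% confidence interval −0.71 to −0.30, adjusted *P* = 0.0111, limma). *Parp10* had 3365.5, 3358 and 3317 normalized counts in the *Irf1-/-* libraries and 4333.5, 4835 and 4076 in the WT libraries. The *Irf1-/-* values were almost equal (SD 26.3, against 386 in WT), and all were below WT. Its log2 fold change was −0.40 (SE 0.093, 95% confidence interval −0.59 to −0.20, adjusted *P* = 0.0329, limma). In the annotation *Parp10* shares 205 exonic bases, 4.80% of its exonic length, with *Plec* on the same strand.

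*Parp11* had 1715, 1797 and 1606 normalized counts in *Irf1-/-* and 2265, 2001.5 and 2133 in WT replicates 2, 3 and 4. The groups did not overlap, and replicate 3 of each genotype came closest to the other. With 80.0% of the WT mean and a log2 fold change of −0.32 (SE 0.103, 95% confidence interval −0.54 to −0.10), *Parp11* did not pass the adjusted threshold in limma (adjusted *P* = 0.118, range over the alternatives 0.0393 to 0.403) and passed it in DESeq2 (adjusted *P* = 0.0393).

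The 3 calls depended on single mice. Without *Irf1-/-* replicate 4 or without WT replicate 2 none of the 10 members was called in limma, with 6 and 5 members at an unadjusted *P* under 0.05, where 11.3% and 12.4% of tested genes were. The adjusted *P* of *Dtx3l* was then 0.0972 and 0.0510, and that of *Parp12* 0.0772 and 0.0540, within ranges of 7.93e-05 to 0.187 and 7.30e-05 to 0.209 over all alternatives. *Dtx3l* and *Parp12* were each called in 4 of the 6 fits that left out a library. *Parp10* was called in 1 of them, the one without WT replicate 4. No member was called without the intensity trend in limma, where 5 members and 12.2% of tested genes had an unadjusted *P* under 0.05. The same 3 members were called by edgeR, among 3.29% of its tested genes, and DESeq2 called 5, adding *Parp8* and *Parp11*, among 7.37% of the 17404 genes, against 3.22% in limma. Over all alternatives the log2 fold changes of the 3 called members stayed between −0.45 and −0.38 for *Dtx3l*, −0.56 and −0.44 for *Parp12* and −0.45 and −0.33 for *Parp10*.

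Among the other members, *Parp1* and *Parp2* encode the main enzymes that build ADP-ribose chains at DNA breaks. *Parp1* had 18246, 20119 and 16812 normalized counts in *Irf1-/-* and 20424, 22298 and 17903 in WT replicates 2, 3 and 4. WT replicate 4 lay among the *Irf1-/-* libraries, and the ranges overlapped. The log2 fold change was −0.13 (SE 0.101, 95% confidence interval −0.35 to 0.08, adjusted *P* = 0.592, limma), and leaving out WT replicate 4 or 3 gave −0.22 or −0.06. *Parp2* had 5016, 4813 and 4607 normalized counts in the *Irf1-/-* libraries and 5382, 5230.2 and 4655 in the WT libraries. Here WT replicate 4 fell among the *Irf1-/-* values. The log2 fold change was −0.08 (SE 0.090, 95% confidence interval −0.27 to 0.12, adjusted *P* = 0.752, limma), and −0.14 or −0.04 when WT replicate 4 or 2 was left out.

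*Parp3*, which also responds to DNA breaks, had 1165, 1035 and 1182 normalized counts in *Irf1-/-* and 1771, 1130.3 and 1504 in WT replicates 2, 3 and 4. The WT libraries were widely spread (coefficient of variation 21.9%), and WT replicate 3 was as low as the *Irf1-/-* libraries. The log2 fold change was −0.36 (SE 0.151, 95% confidence interval −0.68 to −0.03, adjusted *P* = 0.248, limma), but −0.21 without WT replicate 2 and −0.54 without WT replicate 3. *Parp8*, which encodes an enzyme for single ADP-ribose units, was the member with a positive fold change. It had 2271, 1884 and 2209 normalized counts in *Irf1-/-* and 1641, 1319.7 and 1657 in WT replicates 2, 3 and 4. All *Irf1-/-* libraries were above all WT libraries, and *Irf1-/-* replicate 3 came closest to WT. The mean was 138% of WT and the log2 fold change 0.47 (SE 0.122, 95% confidence interval 0.20 to 0.73), with an adjusted *P* of 0.0551 in limma, 0.0541 in edgeR and 0.00754 in DESeq2 (range over the alternatives 0.00754 to 0.316).

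The summed normalized counts of the 6 interferon-induced members were 20896, 21904 and 19593 in *Irf1-/-* and 27101, 27343 and 25432 in WT replicates 2, 3 and 4. These sums did not overlap between genotypes. Those of the 4 other members, of which *Parp1* was the most abundant, were 26698, 27851 and 24811 in *Irf1-/-* and 29217.5, 29978 and 25719 in WT libraries. They overlapped, with WT replicate 4 among the *Irf1-/-* libraries. Whether both lists differ in their response to genotype was not tested.

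**Figure D1:**
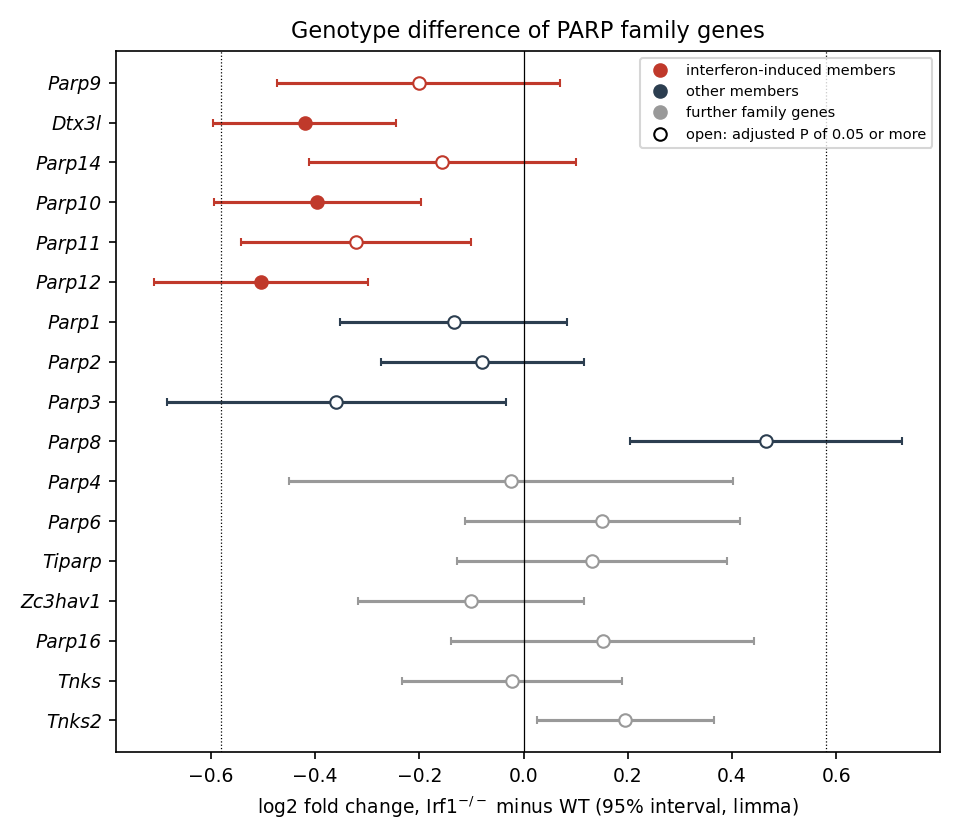
Log2 fold change of each member and of 7 further PARP family genes, *Irf1-/-* minus WT, with 95% confidence intervals from limma over 3 libraries per genotype. Filled symbols have an adjusted *P* under 0.05, and dotted lines mark an absolute log2 fold change of 0.58. *Dtx3l* (−0.42), *Parp10* (−0.40) and *Parp12* (−0.50) are filled and lie between the dotted line and 0, and *Parp8* (0.47) is the member on the right side of 0.

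The members also differ in level. Per kilobase of exonic length (GENCODE vM1), *Parp1* had the highest mean level in WT HSCs, at 5254 ± 573 normalized counts (SD, *n* = 3), followed by *Parp2* with 2846 ± 214. *Dtx3l*, *Parp12*, *Parp10* and *Parp9* came next with 1386, 1287, 1033 and 950.3 normalized counts per kilobase. *Parp8*, *Parp3*, *Parp11* and *Parp14* had the lowest levels, with 498, 397, 373 and 255. Neighbours in this order whose WT libraries overlapped were *Parp10* with *Parp9*, *Parp8* with *Parp3* and *Parp3* with *Parp11*. So the interferon-induced members were spread over the order and were not the abundant end of it.

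None of 7 PARP family genes outside the member list (*Parp4*, *Parp6*, *Tiparp*, *Zc3hav1*, *Parp16*, *Tnks* and *Tnks2*) had an adjusted *P* under 0.05 in limma, edgeR or DESeq2, and 1 had an unadjusted *P* under 0.05. Their median was 0.13 on the log2 scale, with 3 negative and 4 positive values. The most abundant, *Tnks2*, a tankyrase, had 12017, 12138.5 and 11887 normalized counts in *Irf1-/-* and 10695, 10619 and 10165 in WT replicates 2, 3 and 4. The genotypes did not overlap, and limma gave 0.20 as the log2 fold change (adjusted *P* = 0.225, SE 0.079).

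Genes that act on the same chemistry were tested next. Of 6 genes for the removal of ADP-ribose, 0 passed in limma, edgeR or DESeq2 and 1 had an unadjusted *P* under 0.05. Their median log2 fold change was −0.03, and the most abundant, *Adprhl2* (the older symbol of *Adprs*), was at 99.7% of WT. Of 8 partners of PARP1 and PARP2 in strand break repair, 0 passed in limma, with 1 at an unadjusted *P* under 0.05, and 1 passed in edgeR and in DESeq2. That gene was *Hpf1*, whose product completes the active site of PARP1 and PARP2, at 76.7% of WT without overlap of the genotypes (log2 fold change −0.38, limma adjusted *P* = 0.0534, SE 0.0996). The median was −0.05, and *Lig3*, a DNA ligase and the most abundant, was at 102.5% of WT. Of 9 tested genes for NAD supply and other NAD consumers, 0 passed in limma and edgeR and 2 in DESeq2, with 3 at an unadjusted *P* under 0.05 and a median of 0.04. The most abundant of these, *Nampt*, the rate-limiting enzyme of NAD salvage, had 3545, 3671 and 3298 normalized counts in *Irf1-/-* and 4115, 4831 and 4107 in WT libraries. The groups did not overlap, and limma gave −0.31 as the log2 fold change (adjusted *P* = 0.109, SE 0.097). *Naprt*, the other gene of this list that passed in DESeq2, was higher, at 4331, 4198 and 4364 in *Irf1-/-* and 3358, 3739 and 3066 in WT libraries (log2 fold change 0.35, limma adjusted *P* = 0.0686, SE 0.096).

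Interferon genes outside the family moved to very different extents. The 12 genes for interferon receptors and signalling had a median log2 fold change of 0.11, with 5 negative and 7 positive values. At an adjusted *P* under 0.05, 1 was lower and 0 were higher in limma, and edgeR called 1 and DESeq2 4. In limma 7 had an unadjusted *P* under 0.05, where 16.5% of tested genes did. *Irf1-/-* libraries lay entirely below WT for 3 genes and entirely above for 5, where 9.27% and 10.6% of tested genes did. *Jak1*, the most abundant gene of this list, was at 112% of WT.

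Of 24 type I interferon-stimulated genes, 8 were lower and 1 was higher at an adjusted *P* under 0.05 in limma, and edgeR called 9 and DESeq2 11 genes. Of all tested genes, 1.49% were lower and 1.73% higher in limma, and edgeR called 3.29% and DESeq2 7.37%. Over the type I list, 18 fold changes were negative and 6 positive (median −0.23). The smallest *P* values were those of *Oas3* (log2 fold change −1.31), *Ifit3* (−1.89), *Ifit2* (−0.69), *Ddx60* (−0.69), *Trim25* (0.47) and *Mx1* (−1.24), and *Oasl2* (−0.43) was the most abundant. Of 18 interferon gamma-induced genes, 16 were lower at this threshold (median −0.97), and 16 were called by edgeR and by DESeq2. *H2-Aa* (−5.25), *Zbp1* (−4.85), *Casp1* (−2.64), *Gbp2* (−1.25), *Gbp4* (−2.83) and *Psmb9* (−0.98) had the smallest *P* values, and *B2m* (−0.62) was the most abundant. The median of the 6 interferon-induced PARP members (−0.36) lay between those of these lists. The mean deviation of the type I list on the log2 scale was 0.02 in *Irf1-/-* replicate 3, against −0.22 and −0.35 in replicates 2 and 4.

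Proliferation genes were also compared. All 13 had negative fold changes (median −0.46) and an unadjusted *P* under 0.05, where 16.5% of tested genes had such a *P*. An adjusted *P* under 0.05 was reached by 6 in edgeR, by 12 in DESeq2 and by 4 in limma: *Top2a* (−0.77), *Cdk1* (−0.50), *Tyms* (−0.46) and *Mki67* (−0.67). Of all tested genes, 3.29%, 7.37% and 3.22% reached it in edgeR, DESeq2 and limma. The summed normalized counts of the 13 genes, with *Mcm6* as the most abundant, were 169559, 176674 and 147587 in *Irf1-/-* and 230819.5, 256915 and 185186 in WT replicates 2, 3 and 4. The sums did not overlap, and WT replicate 4 came closest to the *Irf1-/-* libraries. The part of this list's change in the members' values was not tested.

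Markers of HSCs and other blood cells were compared next. *Kit*, at 82582 normalized counts in WT and at 99.5% of WT in *Irf1-/-* HSCs, was the most abundant HSC gene, and 3 of 9 passed the adjusted threshold, *Fgd5* (0.83) and *Procr* (0.52) higher and *Ly6a* (−0.43), which encodes the sorting marker Sca-1, lower. Of *Cd48* and *Flt3*, whose surface proteins are low or absent on HSCs, *Flt3* was higher (0.67, adjusted *P* = 0.0407, limma), and it was the most abundant gene of both this and the dendritic cell list. In the latter it was the 1 gene of 3 that passed, and the other 2 had negative fold changes (list median −0.55). *Klf1* (−0.72) was lower and the most abundant of 2 tested erythroid genes, and *Hbb-bt* was at 0 in all libraries. Of the tested B cell (3), T cell (2), NK cell (2), granulocyte (3) and monocyte and macrophage (4) markers, 0 passed in limma, edgeR or DESeq2 and 0 had an unadjusted *P* under 0.05. The most abundant genes of the T cell, NK cell, granulocyte and monocyte and macrophage lists were *Cd4*, *Klrb1c*, *Mpo* and *Lyz2*. The mean of *Lyz2* was 27876 normalized counts in *Irf1-/-* and 26100 in WT libraries, above those of 7 of the 9 HSC genes.

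WT replicate 4 had the highest mean deviation on the log2 scale in the granulocyte (2.34, next highest 0.29), dendritic cell (1.35, next 0.28), NK cell (1.21, next 0.56) and B cell (0.50, next 0.27) lists. The summed granulocyte markers were 359, 308 and 533 normalized counts in *Irf1-/-* and 281, 278 and 1396 in WT replicates 2, 3 and 4. In WT replicate 4, *S100a8* reached 1033 and *Ly6g* 46.3, and *Ly6g* was at 0 in the other 2 WT libraries. Without this library 5.77% of tested genes and 4 members were called, *Parp8* (log2 fold change 0.52) besides *Parp10*, *Parp12* and *Dtx3l*, so the 3 calls did not rest on it.

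Position was examined around the cluster of *Parp14*, *Dtx3l* and *Parp9*. Of the 4 genes on each side in the gene order of assembly GRCm38.p6 (*1600019K03Rik*, *Sema5b*, *Slc49a4* and *Hspbap1* before and *Kpna1*, *Wdr5b*, *Fam162a* and *Ccdc58* after), 0 had an adjusted *P* under 0.05 in limma, with 2 at an unadjusted *P* under 0.05, and 0 in edgeR or DESeq2. *Slc49a4*, with 2391, 2368 and 2493.5 normalized counts in *Irf1-/-* and 2017, 1957.5 and 2126 in WT libraries, had a log2 fold change of 0.25, with a limma adjusted *P* of 0.194. *Wdr5b*, with 688, 715 and 625 in *Irf1-/-* and 778, 976 and 843 in WT libraries, had one of −0.35 (adjusted *P* = 0.217, limma). *Ccdc58* had 600, 752 and 757 in *Irf1-/-* and 785, 833 and 855 in WT libraries, and its log2 fold change was −0.24 (limma adjusted *P* = 0.462). For these 3 of the 8 neighbours the genotypes did not overlap, with 2 lower and 1 higher, where 9.27% of tested genes lay entirely below and 10.6% entirely above WT.

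By likeness to the mean standardized profile of *Parp9*, *Dtx3l* and *Parp14* over the 6 libraries, the first 5 of 12066 genes were *Parp11* (Pearson *r* = 0.991), *Prkce* (0.990), *Gm12657* (0.985), *Nlrp1a* (0.984) and *Lsm6* (0.981). All of these were lower in each *Irf1-/-* than in each WT library, which such a profile selects for, and the values are a description of 6 libraries.

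Promoter sequences were taken from RefSeq (GRCm38.p6, 250 bases before to 50 after a gene's start) for 7 of the 10 members, with 2 windows for *Parp11*. *Parp9*, *Parp10* and *Parp14* had no entry in the promoter set used here, so their promoters were not searched. Both strands were searched for GAAANNGAAA, the core of the element bound by interferon regulatory factors, and for TTCNNNGAA, the core of the gamma-activated sequence element. The first was found in 1 of 7 members, *Parp11*, where 3.99% of all 27025 genes with a window held it. The second was also found in *Parp11* alone, where 9.55% of all genes held it. Both matches lay in the same *Parp11* window, and its other window, on a start 6797 bases inside the gene, held neither motif. In *Parp11* the first match reads TTTCGATTTC on the strand of the gene, as the motif is on the opposite strand, and lies from 44 to 35 bases before the start, and the second, TTCTTGGAA, from 37 to 29 bases before it, so that they overlap by 3 bases. The windows of the member with matches, of 2 called members and of the member that was higher are given below 5′ to 3′, with matches to either motif in capitals. They are *Parp11* at chr6:127446590-127446889 (plus strand), *Dtx3l* at chr16:35938978-35939277 (minus strand), *Parp12* at chr6:39118300-39118599 (minus strand) and *Parp8* at chr13:117025482-117025781 (minus strand). The *Dtx3l* and *Parp12* windows are placed on the outer end of the gene in this assembly, that of *Parp11* on a start 10 bases inside the gene and that of *Parp8* on one 488 bases inside it.
Parp11: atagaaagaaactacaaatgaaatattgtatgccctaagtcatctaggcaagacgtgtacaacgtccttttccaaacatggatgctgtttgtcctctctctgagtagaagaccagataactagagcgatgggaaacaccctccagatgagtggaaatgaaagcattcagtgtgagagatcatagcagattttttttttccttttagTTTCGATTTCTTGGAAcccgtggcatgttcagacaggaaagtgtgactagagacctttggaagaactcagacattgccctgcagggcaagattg
Dtx3l: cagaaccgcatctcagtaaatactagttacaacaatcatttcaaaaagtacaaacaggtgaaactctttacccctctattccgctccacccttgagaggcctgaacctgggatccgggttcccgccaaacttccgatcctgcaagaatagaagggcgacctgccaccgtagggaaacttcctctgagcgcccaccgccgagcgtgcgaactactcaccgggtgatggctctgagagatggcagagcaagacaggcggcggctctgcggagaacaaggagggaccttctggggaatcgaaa
Parp12: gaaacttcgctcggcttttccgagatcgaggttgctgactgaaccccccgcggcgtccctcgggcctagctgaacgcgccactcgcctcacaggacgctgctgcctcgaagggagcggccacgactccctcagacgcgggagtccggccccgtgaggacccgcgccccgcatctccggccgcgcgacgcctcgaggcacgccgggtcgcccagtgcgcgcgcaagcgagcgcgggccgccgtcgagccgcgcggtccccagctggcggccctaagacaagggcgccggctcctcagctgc
Parp8: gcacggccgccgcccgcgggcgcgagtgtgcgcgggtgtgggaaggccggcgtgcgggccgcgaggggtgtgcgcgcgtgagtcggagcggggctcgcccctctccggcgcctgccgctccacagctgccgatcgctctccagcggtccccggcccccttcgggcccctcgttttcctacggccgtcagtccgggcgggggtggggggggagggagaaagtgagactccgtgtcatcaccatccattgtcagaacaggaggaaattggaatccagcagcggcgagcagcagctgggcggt
The *Dtx3l*, *Parp12* and *Parp8* windows hold neither motif, which says only that these letters are not in these 300 bases. Among 6 of the further family genes with an entry, *Parp4* held the first motif at 2 overlapping places, GAAAAAGAAA and GAAAGTGAAA, and *Parp4* was at 99.0% of WT. *Parp16* held the second motif, TTCAGAGAA, and was at 111% of WT.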

How the data were processed

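RNA was taken from HSCs of 3 WT and 3 *Irf1-/-* mice, grouped by the labels. The authors amplified cDNA with a SMART-Seq v4 kit, used Trim Galore! for trimming and HISAT2 for alignment to mm39 (submitters' processing notes), counted reads per gene with Htseq-count and divided them by DESeq2 size factors, and deposited this signal. Versions, annotation and strand setting are not given in the sources used here. All values (100%, tolerance 0.1) were whole multiples of 1 read, so reads were recovered. Libraries of 1 genotype differed by more than counting noise (chi-square per gene 16.0 to 30.0).

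The genotype test was limma 3.58.1 (R 4.3.3, intensity trend) on log2(normalized count + 1), for genes with a mean of at least 10, with Benjamini-Hochberg adjustment over 17404 genes. Fold changes are on this scale, which understates changes of low genes. Fits were tested on simulated data. edgeR 4.0.16 and DESeq2 1.42.0 on recovered reads (572 and 1282 genes called), pseudocounts, filters, scaling, a replicate block and each library left out were alternatives. Ratios were compared with the exact permutation test (scipy 1.17.1).

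Members and lists were chosen with earlier results of these data known. Named genes are the members, *Irf1*, in each list up to 6 genes with an adjusted *P* under 0.05 by smallest *P* and the most abundant one, 4 neighbours on each side, and 5 genes by likeness. Values of *Wdr5b*, *Slc49a4* and *Ccdc58* among the neighbours were chosen for print, and *Hpf1*, *Naprt*, *S100a8*, *Ly6g*, *Hbb-bt*, *Cd48* and *Plec* named, once the values were known, and the 7 further family genes are named for completeness. Exonic lengths came from GENCODE vM1 by symbol, on another build than the files. *Rigi* and *Adprs* were matched by older symbols. Some genes that the naming rule covers are not reported here.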

Additional observations from a re-analysis of the deposited data

How the results depend on the processing

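Of 170 log2 fold changes (10 members under 17 alternatives), none changed sign, 150 stayed on the same side of the adjusted threshold, 12 no longer passed it and 8 newly passed it. Without the intensity trend in limma, 0 members had an adjusted *P* under 0.05 (5 at an unadjusted *P* under 0.05), and 40 genes passed the adjusted threshold, the same 40 that passed both thresholds. DESeq2 called 5 members whether its prior was used or not, among 1277 genes with it and 1282 genes without it. Both thresholds were passed by 303 genes with the prior (169 higher and 134 lower) and by 504 without it. By adjusted *P* alone, limma called 561 genes instead of 333. The causes of these differences were not tested.

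With 1 library left out, between 0 and 4 members, between 230 and 992 genes at the adjusted threshold and between 204 and 569 genes at both thresholds were called, in fits with 5 libraries. The lowest values came without *Irf1-/-* replicate 4 and the highest without WT replicate 4. Members were also at 0 without WT replicate 2. The log2 ratio of *Parp9* to *Dtx3l* stayed higher in *Irf1-/-* HSCs, by 0.08 to 0.30, and the promoter count was 1 also without the 50 bases after the start.

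The replicate numbers are shared by both genotypes. Deviations of same-numbered libraries correlated at −0.09, 0.25 and 0.15 for numbers 2, 3 and 4, and *Irf1-/-* replicate 2 correlated best with WT replicate 4 (0.25). Deviations from means of 3 libraries are too few to show whether the numbers pair the mice. With the replicate number as a block, 1075 genes and 4 members were called, against 561 genes and 3 members without it. The members had at least 1003 reads in each library, but the cDNA was amplified, so reads are not independent molecules.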
